A study of Arabidopsis thaliana with 27 samples.

Results

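The LZy zygotes are hybrid zygotes of Arabidopsis thaliana with a Landsberg erecta (Ler) mother and a Columbia (Col) father, and their libraries from 24 hours after pollination were set against those from 14 hours. They are 6 of the 27 libraries of the series, LZy14 replicates 1 to 3 and LZy24 replicates 1 to 3, chosen by their labels and by no measured value. The other zygotes of the series served for comparison, namely CZy14 and CZy24 from the reverse cross (Col mother, Ler father) and Zy14 and Zy24 of pure Col, each with 3 libraries. All plants grew in a greenhouse under long days at 22 °C, and the labels name no transgene, mutation or drug in any of these groups. Polyadenylated RNA was caught on magnetic beads and amplified as cDNA with a SMART-Seq v4 kit made for very low input. The labels do not say whether the 3 libraries of a group came from separate plants or pools. The p-values thus measure only the spread between libraries, which may be technical.

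In flowering plants the fertilised egg cell closes its egg programme, elongates along the axis of the future embryo and divides unequally. The small apical daughter founds most of the embryo and the large basal daughter makes the suspensor. Transcripts stored by the mother are lost in this period while transcription from the zygote's own genome grows, and reciprocal crosses between accessions are a classical way to ask what each parent brings.

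Levels are in FPKM, a fragment count corrected for transcript length and library size, and a gene missing from a library's table is written as listed at 0. Changes were fitted on log2(FPKM + 1) and are given as log2 change ± SE, a scale that understates the change of low genes. A gene is said to rise or fall only at a Benjamini-Hochberg adjusted p under 0.05 from limma with a log2 change of at least 1 in size. The fit estimated each gene's spread from all 18 zygote libraries together. The SE and p-value of an LZy change thus also take in the spread of the CZy and Zy libraries. Libraries listed 16077 to 18719 genes above 0. From the steps between low values, 1 fragment per kb was worth 0.0559 to 0.0725 FPKM in LZy14 and 0.0756 to 0.0846 in LZy24. FPKM summed to 780493 to 798379 per library at 14 hours and 926866 to 940207 at 24 hours. In bulk samples fewer cells of a type and less RNA per cell cannot be told apart.

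Markers of other cells were scarce in the LZy libraries. Synergid markers summed to at most 0.06 FPKM in LZy14 and 0.47 in LZy24, and seed coat markers to at most 2.28 and 2.21. Of the libraries set beside them, Zy14 replicate 1 held 517 FPKM of synergid markers. Replicates 2 and 3 of Zy14 held 0 and 0.45 FPKM, and every CZy and Zy24 library held 0. All comparisons with Zy include Zy14 replicate 1. Sperm and pollen markers summed to 12.2 to 20.9 FPKM in LZy14 and 4.71 to 16.2 in LZy24, and central cell and endosperm markers to 1.93 to 6.58 and 14.3 to 16.4. AGL61 and PHE1 of the central cell and endosperm, DD31 of the synergids, and BAN, TT2, TT12 and STK of the seed coat and ovule were listed at 0 in all 6 libraries. AGL62, an endosperm MADS-box gene, was at 0, 3.07 and 0.86 FPKM in LZy14 and 10.9, 14.2 and 10.2 in LZy24 (2.69 ± 0.89, adjusted p = 0.0205), a call lost without LZy14 replicate 1 (2.20), LZy14 replicate 3 (2.65) or LZy24 replicate 2 (2.56). The part of such cells in the results was not tested.

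LZy14 replicate 3 lay between replicates 1 and 2 across almost the whole transcriptome. Among 1550 genes in which replicates 1 and 2 were over 2-fold apart, replicate 3 was between them in 1548 (99.9%). A mean weighted 55% to replicate 1 and 45% to replicate 2 correlated with replicate 3 at r = 0.998 across genes, against 0.923 between replicates 1 and 2 themselves. Replicate 3 was over 2-fold away from both others on the same side in 0.0585% of 18815 genes, against 6.89% for replicate 1 and 9.59% for replicate 2. What made it so was not tested, so the counts of called genes in each list are also given without it. The SE and p-values printed for single genes, and the permutation tests, keep it as a separate library. They may be too small if it is not independent of replicates 1 and 2. LZy24 replicate 2 stood apart from its partners, with 522 genes over 2-fold above both and 733 below, or 6.67% of genes, against 1.91% and 1.62% for replicates 1 and 3. Zy24 replicate 3 lay between its partners in 1832 of 1939 genes (94.5%). CZy24 replicate 2 did so in 1388 of 1543 (90.0%) and Zy14 replicate 1 in 1903 of 2235 (85.1%). For LZy24 replicate 3 it was 320 of 377 (84.9%).

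From 14 to 24 hours 3239 of 18815 tested genes rose (17.2%) and 3558 fell (18.9%), or 36.1% in either direction, with a median log2 change of -0.03 over all tested genes. The LZy14 and LZy24 libraries did not overlap in 11006 genes (58.5%), and in 11049 (58.7%) with LZy14 replicate 3 left out. Many named genes were chosen for a large change or for no overlap. Where no overlap is stated for them below, it describes their values and adds no support. Without LZy14 replicate 3 the counts were 2906 higher (15.4%) and 2873 lower (15.3%), or 30.7% together, and without LZy24 replicate 2 they were 3014 (16.0%) and 3173 (16.9%). Scaling every library to the same sum moved the median to -0.22 and the counts to 2563 higher and 4308 lower, so that 37.3% of calls were higher in place of 47.7%. Changes below are those of the deposited FPKM, with no scaling or centring. Counts of calls in lists stand beside the shares of 17.2% and 18.9% over all tested genes. At an unadjusted p under 0.05 in limma, 4689 of 18815 genes were higher and 5055 lower, to set beside list counts at that threshold.

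The number of genes at or above 1 FPKM was 15498, 15331 and 16167 in LZy14 and 14809, 14997 and 15237 in LZy24. All 24 hour libraries were below all 14 hour libraries, with a difference of -651 between the means (exact two-sided permutation p = 0.1, the smallest that 3 against 3 libraries allow). Leaving out LZy14 replicate 3 gave -400.2. The same difference was -2333 in CZy and -2337 in Zy. By the worth of 1 fragment per kb, every LZy24 library was shallower than every LZy14 library (0.0756 to 0.0846 against 0.0559 to 0.0725 FPKM). At a threshold of 5 FPKM the LZy difference was -209.7. The part of depth in it was not tested.

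Transcripts of the egg programme were close to absent at 24 hours. All 9 egg cell genes tested fell and none rose, with a median log2 change of -9, and at an unadjusted p under 0.05 the limma counts were also 9 and 0. All 9 fell without LZy14 replicate 3, and without LZy14 replicate 2, LZy24 replicate 1 or LZy24 replicate 2 the count was 8. Their summed level was 12457 to 23521 FPKM in LZy14 and 54.3 to 74.4 in LZy24. EC1.1, a secreted cysteine-rich protein with which the egg cell activates sperm, was the highest gene of each LZy14 library at 4549, 8015 and 6162 FPKM. It was listed at 0 in each LZy24 library (-12.57 ± 0.23, adjusted p = 1.17e-16). ECS1, an aspartyl protease secreted by the egg cell that takes part in the block to further pollen tubes, was at 2214, 3207 and 2609 FPKM and then at 0, 0 and 0.51 (-11.17 ± 0.25, adjusted p = 1.62e-15).

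EC1.2, a member of the same family as EC1.1, showed how far the LZy14 libraries could differ, at 23.0, 975 and 426 FPKM, with 0 in each LZy24 library (-7.75 ± 0.81, adjusted p = 8.37e-07). Reads from near copies may be divided between them, so single values of the EC1 family are uncertain. EC1.5 kept a level that the others did not, with 403, 603 and 499 FPKM at 14 hours and 52.2, 73.0 and 64.7 at 24 hours (-2.96 ± 0.27, adjusted p = 1.61e-07). RKD2, an RWP-RK factor of egg cell identity, went from 476, 395 and 434 FPKM to 0, 0 and 1.22 (-8.38 ± 0.66, adjusted p = 2.94e-08). No LZy24 library reached the lowest LZy14 library in any of these 5 genes. The hours did not overlap, in either direction, in 58.5% of all tested genes.

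**Figure D1:**
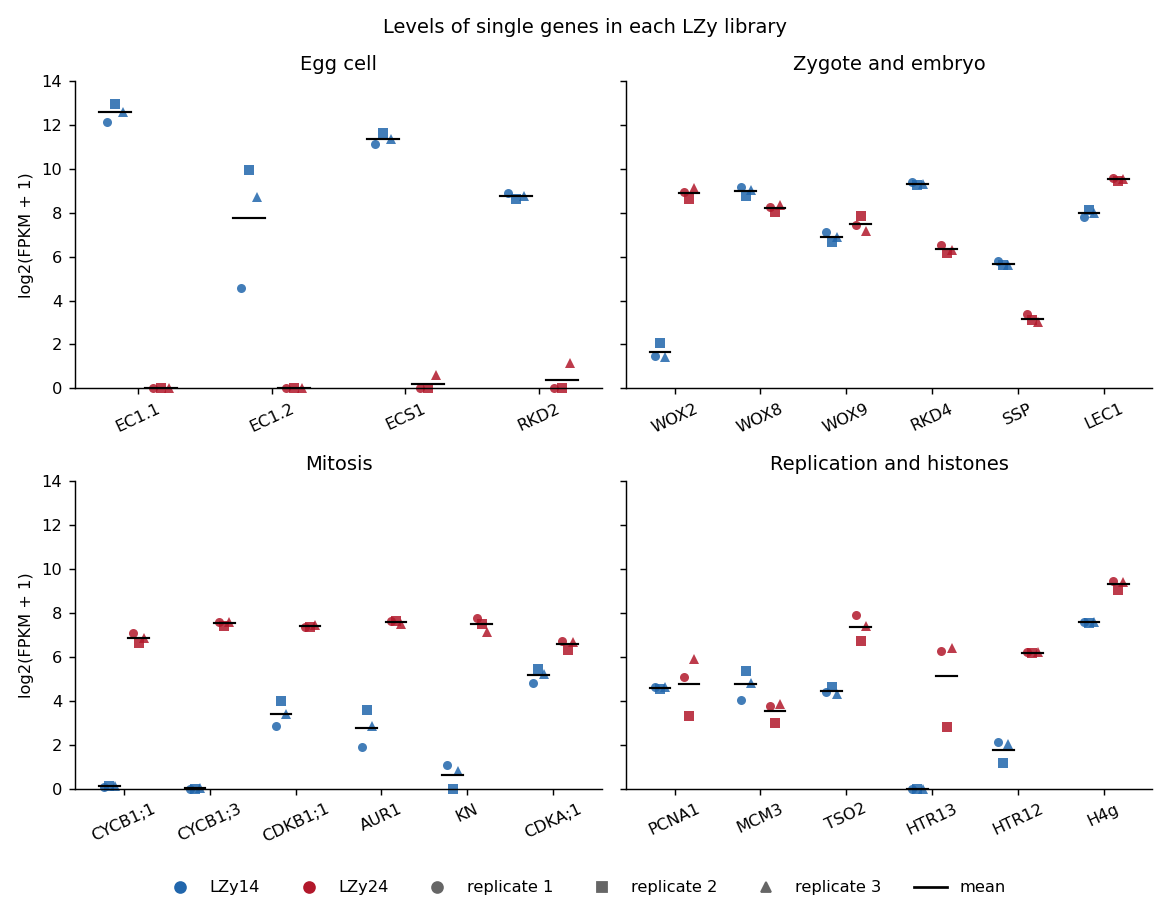
FPKM on a log scale in each LZy library (blue LZy14, red LZy24, marker shape for the replicate, bar for the group mean of 3) for egg cell genes, zygote and embryo regulators, mitosis genes, and replication and histone genes. Egg cell genes lie at the bottom of the axis at 24 hours and WOX2 and CYCB1;1 at the bottom at 14 hours, while the LZy24 values of PCNA1 lie on both sides of LZy14.

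Of 20 YODA pathway and polarity genes of the zygote, 2 rose and 7 fell (median -0.40), the same counts without LZy14 replicate 3 or without LZy24 replicate 2. Without LZy14 replicate 1 they were 2 and 6 with a median of -0.22, and without LZy14 replicate 2 the median was -0.63. WOX2, a homeobox gene of the apical cell lineage, was at 1.76, 3.25 and 1.73 FPKM and then at 493, 399.9 and 559 (7.24 ± 0.31, adjusted p = 1.22e-11), the largest rise of the list. WOX8 and WOX9, its relatives of the basal lineage, did not pass. WOX8 was at 575, 430.5 and 523 FPKM and then at 309, 264 and 322 (-0.76 ± 0.16, adjusted p = 0.000797), with all LZy24 libraries below all LZy14 libraries. It passed the size threshold after scaling to equal sums (-1.01) or quantile normalization (-1.18). WOX9 was at 137, 102 and 119 FPKM and then at 173, 229 and 142 (0.58 ± 0.60, adjusted p = 0.464), where the hours did not overlap by a narrow margin. WRKY2, which activates WOX8, had a log2 change of 0.20 ± 0.28 (adjusted p = 0.595).

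Genes of the signal that polarises the zygote fell, rose or did not pass, where 17.2% of all tested genes rose and 18.9% fell. RKD4, an RWP-RK factor needed for zygote elongation, went from 679, 606 and 626 FPKM to 90.7, 71.7 and 77.6 (-2.98 ± 0.16, adjusted p = 4e-10). SSP, a membrane-bound kinase-like protein that activates YODA signalling and whose transcripts are known to be brought by sperm, went from 55.3, 47.6 and 48.1 FPKM to 9.47, 7.57 and 7.17 (-2.51 ± 0.44, adjusted p = 0.000173). YDA itself, the kinase at the head of the cascade, went from 59.7, 85.5 and 71.7 FPKM to 28.5, 29.4 and 28.0 (-1.29 ± 0.20, adjusted p = 4.28e-05). The hours did not overlap in any of the 3, as in 58.5% of all tested genes.

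MPK3, a terminal kinase of the cascade, went from 219.9, 171 and 193 FPKM to 3.75, 4.85 and 3.88 (-5.24 ± 0.26, adjusted p = 9.91e-11). Its partner MPK6 did not pass (0.22 ± 0.31, adjusted p = 0.595). MKK4, a kinase above them, fell (-1.73 ± 0.22) and MKK5, its close relative, did not pass (0.28 ± 0.37, adjusted p = 0.571). ER, a receptor kinase whose mutant allele gives the accession Ler its name, fell from 28.0, 39.6 and 33.0 FPKM to 0.76, 1.34 and 2.80 (-3.77 ± 0.36, adjusted p = 2.71e-07). HDG11, a homeodomain factor that acts with WRKY2, fell (-1.15 ± 0.32), a call lost without LZy14 replicate 1 (-0.99). BSK1, a signalling kinase related to SSP, was the other gene that rose, from 4.23, 2.98 and 3.06 FPKM to 9.44, 13.4 and 12.04 (1.51 ± 0.33, adjusted p = 0.0011).

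Regulators of embryo patterning were mixed, with 5 of 12 higher and 2 lower (median 0.37), the same without LZy14 replicate 3. HAN, a GATA factor that positions boundaries in the early embryo, was at 0, 0 and 0.09 FPKM and then at 36.6, 31.2 and 48.5 (5.25 ± 0.54, adjusted p = 6.33e-07). DRN, an AP2-type factor of cotyledon development, rose from 6.56, 1.93 and 4.49 FPKM to 31.9, 29.4 and 23.8 (2.56 ± 0.35, adjusted p = 1.67e-05). PLT1, a root stem cell regulator (2.93 ± 0.43), and PHB, an HD-ZIP factor of the upper side of lateral organs (2.45 ± 0.34), were listed at 0 in all LZy14 libraries. PLT2, a relative of PLT1, fell from 95.6, 122 and 104.77 FPKM to 39.9, 60.4 and 41.3 (-1.19 ± 0.26, adjusted p = 0.00135). CUC2, a NAC factor of organ boundaries, fell from 6.59, 10.6 and 8.02 FPKM to 0 in each library (-3.21 ± 0.47, adjusted p = 3.02e-05). The AP2-type regulator BBM (-0.56 ± 0.33, adjusted p = 0.182) and the epidermal gene ATML1 (0.55 ± 0.30, adjusted p = 0.147) did not pass.

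Of 5 maturation regulators tested, 2 rose and 1 fell (median 0.20, or -0.03 after scaling to equal sums), or 2 and 0 without LZy14 replicate 3. The median was 0.47 without LZy14 replicate 1, 0.34 without LZy24 replicate 3, 0.13 without LZy24 replicate 2 and 0.091 without LZy14 replicate 2. LEC1, a histone-fold factor of embryo identity, was at 224, 278 and 249 FPKM and then at 774, 686 and 752 (1.56 ± 0.23, adjusted p = 3.85e-05). LEC2, a B3-domain factor with overlapping roles, was at 1.59, 16.4 and 7.90 FPKM and then at 151, 165 and 163 (4.45 ± 0.60, adjusted p = 1.29e-05). The hours did not overlap in either, as in 58.5% of all tested genes. L1L, a relative of LEC1, fell (-1.53 ± 0.53, adjusted p = 0.0249), a call lost without LZy14 replicate 2 (-1.20), LZy14 replicate 3 (-1.48) or LZy24 replicate 2 (-1.12).

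Auxin genes moved in both directions, 2 higher and 5 lower of 20 (median 0.03, or -0.09 after scaling to equal sums). Without LZy14 replicate 3 the counts were 1 and 3, without LZy14 replicate 2 they were 2 and 3, and without LZy14 replicate 1, LZy24 replicate 1 or LZy24 replicate 2 there was 1 rise. Without LZy14 replicate 1, with 1 rise and 6 falls, the median was -0.56, and without LZy24 replicate 3 it was -0.056. AUX1, an auxin influx carrier, fell from 307, 185 and 245 FPKM to 0, 0 and 3.49 (-7.20 ± 0.46, adjusted p = 2.63e-09). TAR2, an enzyme of auxin synthesis, fell (-3.05 ± 0.65), as did ARF2, a repressing response factor (-2.02 ± 0.21). BDL, an inhibitor of auxin response factors, rose from 1.03, 2.5 and 1.42 FPKM to 11.4, 11.99 and 7.54 (2.11 ± 0.70, adjusted p = 0.0208). That call was lost without LZy14 replicate 1 (1.93), LZy14 replicate 3 (2.06), LZy24 replicate 1 (2.03) or LZy24 replicate 2 (2.00).

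Of 30 genes of mitosis and cytokinesis 26 rose and none fell, with a median log2 change of 3.78. At an unadjusted p under 0.05 the limma counts were 29 and 0. Without LZy14 replicate 3 or without LZy24 replicate 2 they were again 26 and 0, and after scaling to equal sums 25 and 0. Their summed level was 701 to 724 FPKM in LZy14 and 4462 to 4790.4 in LZy24. The hours did not overlap in 29 of 30, against 58.5% of all tested genes.

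B-type cyclins, which drive entry into mitosis, were among the members that were nearly absent at 14 hours. CYCB1;1 was at 0.04, 0.08 and 0.1 FPKM and then at 135, 98.8 and 117 (6.77 ± 1.03, adjusted p = 4.25e-05). CYCB1;3 was at 0, 0 and 0.03 FPKM and then at 191, 170.1 and 189.7 (7.51 ± 1.13, adjusted p = 3.99e-05). CYCB2;4 was listed at 0 in LZy14 and was at 165, 122.6 and 122.93 FPKM in LZy24 (7.09 ± 0.96, adjusted p = 1.25e-05). No LZy14 library reached the lowest LZy24 library in these cyclins, where the hours did not overlap in 58.5% of all tested genes.

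The kinase partners of the cyclins and the machinery of division rose too. CDKB1;1, a plant-type kinase of the G2 and M phases, rose from 6.13, 15.1 and 9.44 FPKM to 163, 161 and 176 (3.98 ± 0.33, adjusted p = 5.4e-08). CDKA;1, a kinase used in several phases, rose from 27.2, 42.4 and 36.3 FPKM to 103, 78.4 and 103 (1.41 ± 0.26, adjusted p = 0.000325). In both kinases the hours did not overlap, as in 58.5% of all tested genes, and the same held for the next pair. AUR1, an Aurora kinase of the spindle, rose from 2.75, 10.8 and 6.11 FPKM to 197, 199 and 179 (4.82 ± 0.46, adjusted p = 3.04e-07). KN, the syntaxin that fuses vesicles at the cell plate, rose from 1.13, 0 and 0.72 FPKM to 218, 182 and 140.2 (6.85 ± 1.34, adjusted p = 0.000489). The members that did not pass were CYCA2;3 (-0.40), CDC20.2 (0.84), TPX2 (1.88) and MAP65-3 (0.88).

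Promoters of the 3 mitosis genes with the largest called rises are shown. Their matches to AACGG, the core of the mitotic activator element bound by three-repeat MYB factors, are in capitals together with its reverse complement CCGTT. Each is the 250 bases before the annotated start in the Col reference TAIR10.1 of RefSeq, 5′ to 3′ on the gene's strand, the minus strand for all 3. CYCB1;3 is at chr3:3627274-3627523, CYCB2;4 at chr1:28630790-28631039 and KN at chr1:2711001-2711250. The Ler allele is not shown.
CYCB1;3: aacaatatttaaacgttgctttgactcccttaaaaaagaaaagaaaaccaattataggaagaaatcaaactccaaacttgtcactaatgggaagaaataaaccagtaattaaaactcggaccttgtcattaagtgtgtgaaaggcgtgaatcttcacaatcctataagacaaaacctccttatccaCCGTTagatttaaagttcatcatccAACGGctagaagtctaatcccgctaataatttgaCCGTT
CYCB2;4: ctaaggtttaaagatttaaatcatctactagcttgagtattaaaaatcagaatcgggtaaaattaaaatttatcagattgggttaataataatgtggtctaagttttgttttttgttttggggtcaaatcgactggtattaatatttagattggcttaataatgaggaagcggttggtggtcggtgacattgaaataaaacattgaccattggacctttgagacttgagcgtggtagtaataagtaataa
KN: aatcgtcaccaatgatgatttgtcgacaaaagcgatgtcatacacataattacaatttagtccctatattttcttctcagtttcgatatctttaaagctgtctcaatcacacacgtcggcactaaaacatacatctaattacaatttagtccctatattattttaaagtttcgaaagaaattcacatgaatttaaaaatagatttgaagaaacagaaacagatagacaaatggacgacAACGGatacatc
The core occurs 3 times before CYCB1;3, 1 time before KN and 0 times before CYCB2;4. On either strand it was found before 17 of 30 mitosis genes (56.7%) and before 20.6% of all 27443 protein-coding genes. It was found before 24.6% of genes that rose and 22.8% of those that fell. At least 2 matches stood before 11 of 30 mitosis genes (36.7%) and before 3.62% of all protein-coding genes. A match is a description of the sequence and says nothing of binding.

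Inhibitors of the cell cycle kinases split, with 3 of 9 higher and 2 lower (median -0.37), or 2 and 2 without LZy14 replicate 3. The counts were 3 and 3 with a median of -0.11 without LZy14 replicate 2. KRP6, an inhibitor with a known role in the male germ line, fell from 110.1, 249 and 175 FPKM to 0 in each library (-7.41 ± 0.42, adjusted p = 5.65e-10). KRP2, another of its family, rose from 6.02, 10.2 and 9.01 FPKM to 63.2, 59.1 and 55.9 (2.71 ± 0.40, adjusted p = 3.02e-05). The hours did not overlap in either, as in 58.5% of all tested genes.

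DNA replication genes gave other counts than the mitotic genes. Of 24, 3 rose and 7 fell (median -0.32), or 3 and 6 without LZy14 replicate 3 or LZy24 replicate 2. Their summed level was 576 to 624 FPKM in LZy14 and 422 to 675 in LZy24. PCNA1, the sliding clamp of the polymerases, was at 23.9, 21.9 and 23.8 FPKM and then at 32.6, 8.95 and 59.4, so that LZy24 libraries lay on both sides of LZy14 (0.17 ± 0.52, adjusted p = 0.832). MCM3, a subunit of the replicative helicase, was at 15.6, 40.3 and 27.3 FPKM and then at 12.6, 7.05 and 13.4 (-1.21 ± 0.49, adjusted p = 0.0527). It passed without LZy14 replicate 1 (-1.55) and after scaling to equal sums (-1.43). MCM5, another subunit, fell from 13.1, 37.9 and 23.0 FPKM to 6.69, 6.06 and 9 (-1.53 ± 0.41, adjusted p = 0.00571).

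The replication genes that rose were TSO2, CDT1B and MCM10. TSO2, a small subunit of the ribonucleotide reductase that makes deoxynucleotides, rose from 20.25, 23.7 and 18.7 FPKM to 241, 104.93 and 170.4 (2.91 ± 0.27, adjusted p = 1.92e-07). CDT1B, a factor that licenses origins, rose from 28.1, 18 and 23.7 FPKM to 80.1, 57.3 and 73.3 (1.56 ± 0.44, adjusted p = 0.00848). MCM10, an initiation factor, had a change of 1.39 ± 0.33. ORC2, a subunit of the origin recognition complex, fell (-1.71 ± 0.32).

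The promoters of PCNA1 (chr1:2262787-2263036, plus strand) and MCM3 (chr5:18773707-18773956, minus strand), each the 250 bases before the start in TAIR10.1, are shown. Both were among the genes named whatever their call, and both changed differently in the reverse cross. The E2F site letters TTCCCGC, in capitals with their reverse complement, occur 0 times in the first and 1 time in the second.
PCNA1: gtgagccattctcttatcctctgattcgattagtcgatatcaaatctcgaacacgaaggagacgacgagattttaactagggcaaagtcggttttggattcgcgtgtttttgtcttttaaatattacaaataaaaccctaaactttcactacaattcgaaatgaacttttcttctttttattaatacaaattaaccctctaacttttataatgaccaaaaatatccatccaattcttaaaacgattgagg
MCM3: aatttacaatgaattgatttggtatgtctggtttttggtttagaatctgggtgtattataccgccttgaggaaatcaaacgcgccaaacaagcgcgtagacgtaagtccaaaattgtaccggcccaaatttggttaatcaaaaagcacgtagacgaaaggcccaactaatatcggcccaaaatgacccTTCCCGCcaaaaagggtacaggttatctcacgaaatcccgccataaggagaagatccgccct
On either strand these letters were present before 10 of 24 replication genes (41.7%), 1.21% of all protein-coding genes and 3.33% of mitosis genes.

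Of 42 core histone genes tested, 19 rose and 5 fell (median 0.85), or 19 and 4 without LZy14 replicate 3. Without LZy14 replicate 2 or LZy24 replicate 2 the counts were 20 and 3. Of H3 genes 7 of 11 rose and 2 fell (median 2.07). Those falls numbered 1 without LZy14 replicate 3 or LZy24 replicate 3, and 0 without LZy14 replicate 2 or LZy24 replicate 2. Of H4 genes 5 of 8 rose (median 1.61) and of H2A genes 5 of 12 (median 0.91), and none fell in either, at an unadjusted p under 0.05 as well. Of H2B genes 2 of 11 rose and 3 fell (median -0.04, or 0.09 after quantile normalization). That median lay between -0.28 without LZy24 replicate 3 and 0.65 without LZy24 replicate 2. The counts of H4, H2A and H2B genes were the same without LZy14 replicate 3. Core histones took 0.508%, 0.558% and 0.541% of summed FPKM in LZy14 and 0.721%, 0.582% and 0.746% in LZy24, without overlap (exact two-sided permutation p = 0.1, the smallest possible). Histone genes include near copies, so the division of reads among them is uncertain.

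HTR13, which encodes the replication-coupled H3.1, was listed at 0 in LZy14 and was at 75.4, 5.88 and 82.8 FPKM in LZy24 (5.14 ± 0.69, adjusted p = 1.08e-05), with LZy24 replicate 2 far below its partners. HTR9, another H3.1 gene, had the same low library, at 75.3, 10.96 and 87.9 FPKM in LZy24 after 2.39, 5.87 and 3.85 in LZy14 (3.16 ± 0.69, adjusted p = 0.00125). HTR12, the H3 of centromeres, was even across LZy24 at 73.2, 70.9 and 73.1 FPKM after 3.30, 1.23 and 3.07 (4.44 ± 0.48, adjusted p = 1.14e-06). HTR8, which encodes the replacement histone H3.3, fell from 942, 1071 and 1047 FPKM to 492, 469.9 and 541 (-1.02 ± 0.11, adjusted p = 1.64e-06), a call lost by size without LZy14 replicate 2 (-0.99) or LZy24 replicate 2 (-0.98). HTR4, another H3.3 gene, rose (1.22 ± 0.18). H4g rose from 190.4, 188 and 192 FPKM to 699, 534 and 673 (1.73 ± 0.19, adjusted p = 1.34e-06). HTA11, an H2A.Z gene, rose from 7.66, 4.07 and 7.28 FPKM to 76.7, 47.2 and 80.0 (3.23 ± 0.40, adjusted p = 4.53e-06).

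The promoter of H4e, the H4 gene with the largest called rise (2.84 ± 0.55), is shown. It carries the AACGG core of the mitotic genes 2 times, in capitals on either strand, and the histone octamer CGCGGATC 0 times. It is the 250 bases at chr3:17020429-17020678, minus strand, in TAIR10.1.
H4e: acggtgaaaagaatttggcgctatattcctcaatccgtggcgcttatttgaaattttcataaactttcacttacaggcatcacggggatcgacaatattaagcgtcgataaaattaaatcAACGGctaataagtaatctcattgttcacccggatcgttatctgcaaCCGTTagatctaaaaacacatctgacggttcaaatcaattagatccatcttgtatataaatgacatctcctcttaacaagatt
AACGG stood before 25 of 45 core histone genes (55.6%). The octamer stood before 9 of 45 (20%) and before 0.135% of all protein-coding genes.

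Of 19 actin and tubulin genes 9 rose and none fell (median 0.89), with 15 higher and 1 lower at an unadjusted p under 0.05 in limma. At that threshold 4689 of all 18815 genes were higher and 5055 lower. The counts of calls in the list were 8 and 0 without LZy14 replicate 3, and after scaling to equal sums 8 and 1. Their summed level was 2957 to 3042 FPKM in LZy14 and 7107 to 7601 in LZy24. TUB7, a beta-tubulin, rose from 9.51, 42.3 and 24.1 FPKM to 1344, 1012 and 1197 (5.71 ± 0.57, adjusted p = 5.11e-07). TUA2, an alpha-tubulin, rose from 108, 98.6 and 99.6 FPKM to 1029, 919.6 and 972 (3.24 ± 0.17, adjusted p = 2.95e-10). ACT2, an actin of vegetative tissue, rose from 18.7, 21.3 and 20.12 FPKM to 209.5, 187 and 209.8 (3.27 ± 0.22, adjusted p = 4.17e-09). All LZy24 libraries were above all LZy14 libraries in these 3, where 58.5% of all tested genes had no overlap in either direction.

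Of 13 cell wall genes 2 rose and 4 fell (median 0.14, or -0.10 after scaling to equal sums), or 2 and 3 without LZy14 replicate 3 and 1 and 3 without LZy24 replicate 2. Without LZy24 replicate 1 they were 3 and 3, and the median lay between -0.021 without LZy14 replicate 2 and 0.46 without LZy14 replicate 1. CESA5, a cellulose synthase, fell from 23.0, 32.2 and 27.9 FPKM to 1.45, 3.75 and 6.56 (-2.68 ± 0.36, adjusted p = 1.04e-05). Of 10 vacuole genes 2 fell and none rose (median -0.52), with 4 lower and 1 higher at an unadjusted p under 0.05 in limma. Without LZy14 replicate 2 the count was 1 higher and 2 lower with a median of -0.31, and without LZy24 replicate 2 it was 0 and 1. Of 7 genes of RNA polymerase II and general transcription 2 fell and none rose (median -0.91), with 4 and 0 at an unadjusted p under 0.05, and 1 of 5 photosynthesis genes rose and none fell, adjusted or not. The photosynthesis count was 0 without LZy24 replicate 1 and 2 without LZy14 replicate 2. The counts of these last 3 lists were the same without LZy14 replicate 3. Over all tested genes 17.2% rose and 18.9% fell, near the shares of vacuole falls and photosynthesis rises. At an unadjusted p under 0.05 in limma, 4689 of all 18815 genes were higher and 5055 lower.

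Ribosomal protein genes took 11.3%, 11.9% and 11.8% of summed FPKM in LZy14 and 18.3%, 19.1% and 19.1% in LZy24, a difference of 7.16 percentage points without overlap (exact two-sided permutation p = 0.1, the smallest possible). Of 282 tested, 128 rose and 7 fell (median 0.96), and 128 and 6 without LZy14 replicate 3. The count moved with scaling, to 72 higher and 8 lower after scaling to equal sums and to 64 and 7 after quantile normalization. The list was drawn by product description and also holds proteins of the plastid ribosome, among them 2 of its large rises. RPL21C went from 4.01, 17.3 and 10.8 FPKM to 135, 118 and 137 (3.67 ± 0.32, adjusted p = 1.01e-07). The gene emb2394 went from 4.43, 2.14 and 2.20 FPKM to 37.8, 41.4 and 30.5 (3.30 ± 0.43, adjusted p = 7.54e-06).

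Of 19 ribosome biogenesis genes, which process ribosomal RNA, none rose and 1 fell (median -0.11), with 7 higher and 4 lower at an unadjusted p under 0.05 in limma. At that threshold 4689 of all 18815 genes were higher and 5055 lower. The counts of calls in the list were 0 and 1 without LZy14 replicate 3, 2 and 1 without LZy14 replicate 1, 1 and 2 without LZy24 replicate 1, 1 and 0 without LZy24 replicate 2 and 0 and 2 without LZy24 replicate 3. The median was 0.15 without LZy24 replicate 2 and 0.011 without LZy14 replicate 2. The gene that fell was APUM23, an RNA-binding protein of the nucleolus (-1.15 ± 0.23), a call lost by size without LZy24 replicate 2 (-0.99). BRX1-1, a factor of large subunit assembly, was at 47.0, 56.5 and 49.8 FPKM and then at 40.9, 0 and 54.7 (-1.97 ± 0.93, adjusted p = 0.0953), with LZy24 replicate 2 alone at 0.

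Small RNA, DNA methylation and Polycomb genes changed in both directions, with 8 of 35 higher and 11 lower (median -0.18). Over all tested genes 17.2% rose and 18.9% fell. After scaling to equal sums the list had 4 higher and 11 lower (median -0.42). Without LZy14 replicate 3 the counts were 4 and 10, and without LZy24 replicate 1 they were 5 and 10. The median was -0.29 without LZy14 replicate 2 or LZy24 replicate 2. AGO9, an argonaute that works with small RNAs in the ovule, fell from 553, 601 and 577 FPKM to 75.2, 64.2 and 72.6 (-3.01 ± 0.14, adjusted p = 5.29e-11). AGO5, an argonaute of germ cells, fell from 277, 331 and 296 FPKM to 13.7, 11.4 and 20.18 (-4.27 ± 0.23, adjusted p = 2.6e-10). Falls were also called for the argonautes AGO8 (-3.66), AGO2 (-3.41) and AGO1 (-1.74), for the dicers DCL1 (-2.17) and DCL4 (-2.95) and for the Polycomb gene EMF2 (-1.53). AGO10, an argonaute of the embryo and shoot meristem, rose from 0.41, 0 and 0.19 FPKM to 12.3, 11.8 and 11.6 (3.44 ± 0.51, adjusted p = 3.02e-05). VIM1, a cofactor of CG methylation, rose from 31.4, 42.5 and 34.3 FPKM to 202, 179.7 and 187 (2.37 ± 0.29, adjusted p = 4.74e-06). The hours did not overlap in these last 2 or in AGO9 and AGO5, nor in 58.5% of all tested genes.

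Of 16 genes of messenger RNA decay 4 fell and none rose (median -0.29), with 6 and 2 at an unadjusted p under 0.05 in limma and 4 and 0 without LZy14 replicate 3. At that unadjusted p 5055 of all 18815 genes were lower and 4689 higher. Without LZy14 replicate 2 there were 6 falls with a median of -0.18, and without LZy14 replicate 1 the median was -0.48. CAF1B, a deadenylase also known to be induced by stress, fell from 458, 259.8 and 349.6 FPKM to 13.9, 19.4 and 13.7 (-4.40 ± 0.38, adjusted p = 1.03e-07). Of 13 stress and wounding genes 11 fell and none rose (median -3.02), the same at an unadjusted p under 0.05, and 10 fell without LZy14 replicate 3. HSP90.1, a heat-inducible chaperone, fell from 151, 319.7 and 221 FPKM to 6.74, 21.2 and 7.74 (-4.27 ± 0.51, adjusted p = 3.52e-06). ZAT10, a zinc finger repressor of the stress response, fell from 51.8, 112 and 82.8 FPKM to 0 in each library (-6.31 ± 0.60, adjusted p = 2.64e-07). The LZy24 level of HSP90.1 was highest in replicate 2, the library in which HTR13, HTR9 and PCNA1 were lowest, and the transcription factor DREB2A was highest there too at 7.05, 41.9 and 7.37 FPKM. At 14 hours 10 of the 13 genes lay below all CZy14 libraries, as did 19.9% of all genes, and 3 lay below all Zy14 libraries, as did 17.7%. The part of LZy24 replicate 2 in these values was not tested, and without it 11 stress genes fell.

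**Figure D2:**
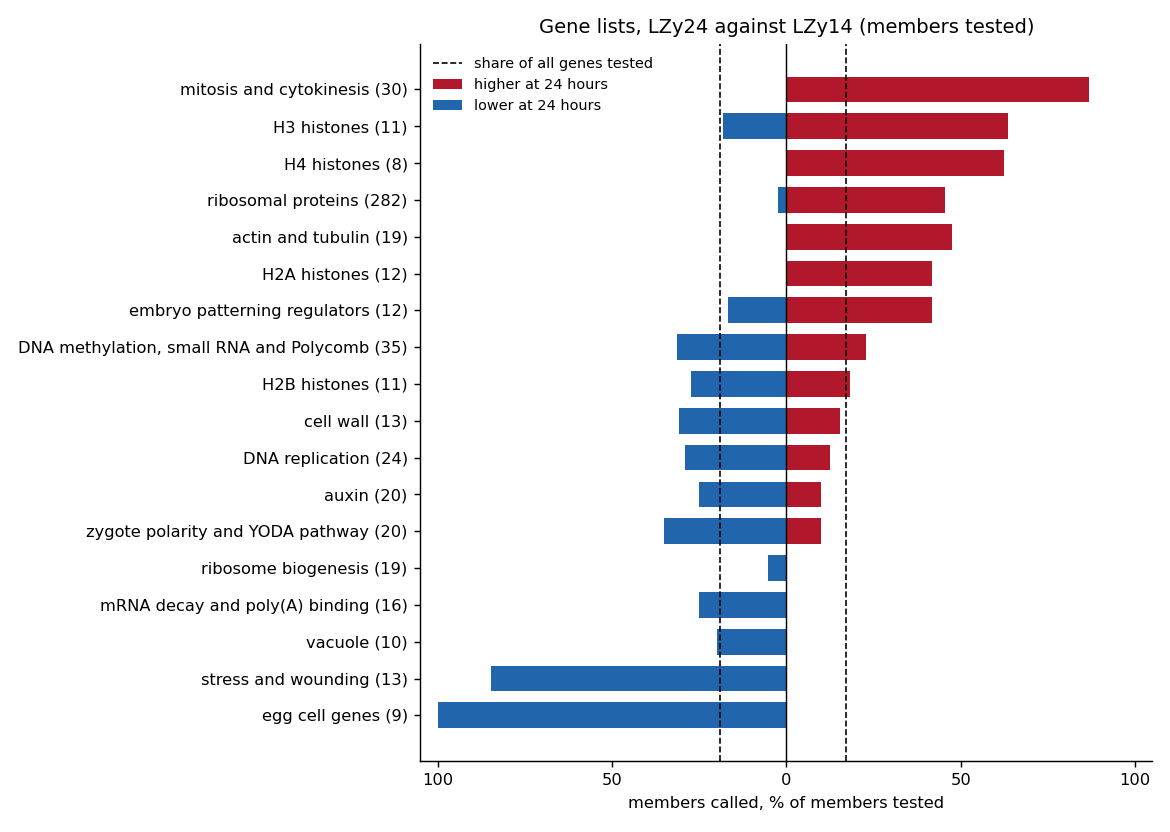
For each gene list, the percent of tested members called higher (red, to the right) and lower (blue, to the left) at 24 against 14 hours in LZy, with dashed lines at the shares over all tested genes (17.2% and 18.9%). Mitosis genes (26 of 30 higher) reach far to the right and egg cell genes (9 of 9 lower) and stress genes (11 of 13 lower) far to the left.

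The largest single changes were of genes that were near absent at 1 of the hours. ENODL15, an early nodulin-like protein, was listed at 0 in LZy14 and was at 1051, 768 and 644 FPKM in LZy24 (9.65 ± 1.38, adjusted p = 2.27e-05). Its relative ENODL14 was likewise listed at 0 and then at 889, 736 and 602 FPKM (9.52 ± 1.41, adjusted p = 3.22e-05). ICE1, a bHLH factor known from cold signalling and stomata, was at 0, 0 and 0.03 FPKM and then at 546, 628 and 508 (9.11 ± 0.46, adjusted p = 1.27e-10). Large rises were also called for the chromosomal protein 3xHMG-box2 (7.43), the KIP1-like protein NET3C (7.94), AT5G62550, annotated as microtubule-associated (7.63), AT5G16250 (8.54), the lipid-transfer-like AT5G38170 (8.49), ENODL13 (8.18), AT2G20670 (8.18) and the cysteine-rich LCR68 (8.01). On the falling side, beside egg cell genes, stood AT1G30814 (-9.69), AT5G50040 of an invertase and pectin methylesterase inhibitor family (-9.22), the F-box gene AT1G80470 (-8.53), the subtilase SBT4.13 (-8.32), the vacuolar processing enzyme ALPHA-VPE (-7.95) and the methylesterase MES10 (-7.90).

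A gene was counted as switched on when all LZy14 libraries were under 1 FPKM and all LZy24 libraries at 5 or above, and as switched off in the reverse case. By this count 268 genes were switched on and 324 off, or 272 and 328 without LZy14 replicate 3. In CZy 173 were switched on and 778 off, and in Zy 60 and 516. Of the genes switched off in LZy, 164 were also switched off in CZy (50.6% of the LZy and 21.1% of the CZy genes) and 149 in Zy (46.0% and 28.9%). Of those switched on, 44 were shared with CZy (16.4% and 25.4%) and 14 with Zy (5.22% and 23.3%).

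The LZy, CZy and Zy changes share no library, but their calls share each gene's estimate of spread. Of the genes that rose in LZy, 1751 also rose in CZy (54.1% of the LZy and 48.7% of the CZy calls) and 1440 in Zy (44.5% and 51.7%). Of those that fell, 1941 also fell in CZy (54.6% and 41.8%) and 1727 in Zy (48.5% and 44.0%). The opposite call was made in CZy for 177 of the LZy rises and 100 of the falls, and in Zy for 158 and 59. Shared rises numbered 1592 with CZy and 1304 with Zy without LZy14 replicate 3, and shared falls 1620 and 1449. Over all genes 19.1% rose and 24.7% fell in CZy, and 14.8% rose and 20.9% fell in Zy (35.6% together). Across 18815 genes, which are not independent, the LZy change correlated with that of CZy at r = 0.611 and with that of Zy at r = 0.617.

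The change itself was called different from that in CZy for 4095 genes, 2259 with a more positive change in LZy (12%) and 1836 with a more negative one (9.76%). Against Zy the counts were 1854 (9.85%) and 1437 (7.64%). Leaving out LZy14 replicate 3 gave 1748 (9.29%) and 1335 (7.1%) against CZy and 1379 (7.33%) and 987 (5.25%) against Zy. Parent of origin, accession and the counting of Ler reads against a Col genome differ together between these crosses and cannot be told apart. The comparisons with CZy and with Zy share the LZy libraries, and those with Zy include Zy14 replicate 1 with its synergid markers.

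At an unadjusted p under 0.05 in limma, 19 of 30 mitosis genes changed more positively in LZy than in CZy and none more negatively. Of all 18815 genes, 3698 changed more positively and 3152 more negatively at that threshold. By call 9 of 30 were more positive, against 12% of all genes, and none was more negative. The count was 7 without LZy14 replicate 3, without LZy14 replicate 1 or LZy24 replicate 3 it was 6, and without LZy24 replicate 1 it was 5. Against Zy it was 10 and 0, beside 9.85% and 7.64% of all genes, and again 10 and 0 without LZy14 replicate 3. At an unadjusted p under 0.05 in limma it was 18 and 0, beside 3481 and 2766 of all 18815 genes. At 14 hours the summed levels overlapped, with 701 to 724 FPKM in LZy, 582 to 727 in CZy and 637 to 765 in Zy. At 24 hours they were 4462 to 4790.4 FPKM in LZy, 1159.7 to 1837 in CZy and 985 to 1761 in Zy, with every LZy library above every other. At that hour 25 of 30 genes lay above all CZy24 libraries (23.8% of all genes did) and 24 above all Zy24 libraries (22.8%).

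CYCB1;1, at 135, 98.8 and 117 FPKM in LZy24, was at 30.2, 2.91 and 28.5 in CZy24 and at 0, 37.5 and 31.9 in Zy24. Its change differed from that in Zy by 4.98 ± 1.45, adjusted p = 0.0235, and the difference from CZy did not pass (3.91 ± 1.45, adjusted p = 0.0602). CDC20.1, an activator of the complex that ends mitosis, rose in LZy (1.14 ± 0.19), fell in Zy (-1.29) and did not pass in CZy (-0.77), and the differences were 1.92 against CZy and 2.43 against Zy.

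For DNA replication genes the change in LZy was called more negative than in CZy for 9 of 24 and more positive for 1 (median difference -1.60). Over all genes these shares were 9.76% and 12%. The list counts were the same without LZy14 replicate 3. Against Zy the counts were 2 more positive and 2 more negative, or 2 and 1 without LZy14 replicate 1, LZy14 replicate 3 or LZy24 replicate 2. Where 3 of these genes rose and 7 fell in LZy, 11 rose and 1 fell in CZy, and 3 rose and 6 fell in Zy. The summed level was 576 to 624 FPKM in LZy14 and 368 to 447 in CZy14, and 422 to 675 in LZy24 and 908 to 1186 in CZy24. The order of LZy and CZy was thus reversed between the hours, without overlap at either. In Zy the sum was 370 to 821 FPKM at 14 hours and 560 to 670 at 24, overlapping LZy at both.

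PCNA1 was at 5.85, 4.60 and 18.4 FPKM in CZy14 and at 140.5, 136 and 158 in CZy24, and its change in LZy differed by -3.84 ± 0.73, adjusted p = 0.00145. MCM3 was at 6.20, 3.85 and 0.84 FPKM and then at 27.8, 42.8 and 36.9 in CZy, a difference of -4.39 ± 0.69, adjusted p = 0.000348, while in Zy it fell (-1.99). MCM5 rose in CZy (3.25), with a difference of -4.78. CDT1B was the gene with the more positive change, rising in LZy and falling in CZy (-1.24) and in Zy (-1.27).

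**Figure D3:**
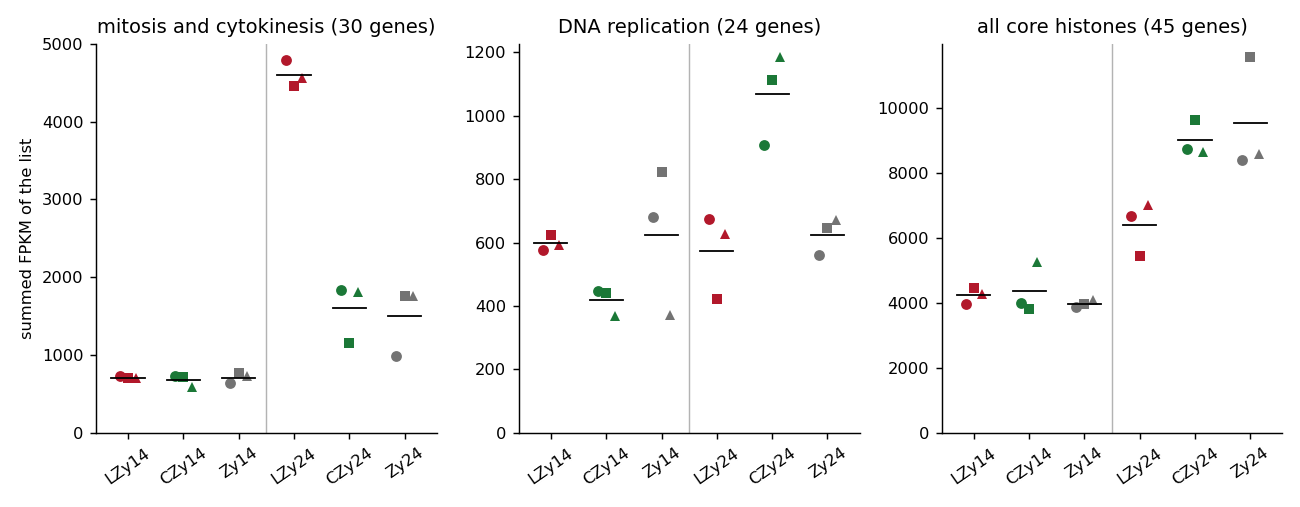
Summed FPKM of 30 mitosis, 24 DNA replication and 45 core histone genes in each library of LZy, CZy and Zy at 14 and 24 hours (circle, square and triangle for replicates 1, 2 and 3, bar for the mean of 3). At 24 hours the LZy libraries are above the others in mitosis genes (4462 to 4790.4) and below them in histone genes (5454 to 7013).

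Core histones reached a lower level in LZy24 than in the other crosses. The sum was 3968 to 4456 FPKM in LZy14 and 5454 to 7013 in LZy24, against 8632 to 9635 in CZy24 and 8401 to 11583 in Zy24. Of 42 genes 21 lay below all CZy24 libraries (21.9% of all genes did) and 27 below all Zy24 libraries (23.1%). The difference in change was called for few of them, 1 more positive and 3 more negative against CZy and the same counts against Zy, or 1 and 2 and 1 and 3 without LZy14 replicate 3. Without LZy14 replicate 2 they were 2 and 4 in both comparisons, and without LZy14 replicate 1 they were 1 and 5 against Zy. HTA11 differed by -3.61 from CZy and by -2.61 from Zy.

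Among regulators RKD4 had a called difference from both other crosses. It went from 519.8, 566 and 525 FPKM to 255, 329.8 and 331 in CZy and from 569.9, 489 and 333 to 259, 239.8 and 228 in Zy, and passed in neither. Its change in LZy differed by -2.16 ± 0.23, adjusted p = 1.99e-05 from CZy and by -2.08 ± 0.23, adjusted p = 3.5e-05 from Zy. MPK3 fell in all 3 crosses, with differences of -2.59 and -2.68. SSP fell in CZy (-3.49) and did not pass in Zy (-0.37), and the LZy change differed from that in Zy (-2.13) while the difference from CZy did not pass (0.98). WOX2 rose in all 3 crosses, with a called difference from Zy (1.81) and none from CZy (0.49).

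PLT2 passed in neither other cross, with differences of -1.39 and -1.59. HAN rose in all 3 crosses, with differences of 3.58 and 3.17. AGO10 passed in neither other cross (3.11 and 2.70). AGO9 fell in all 3, with a called difference from Zy (-1.88). ZAT12, a stress zinc finger, fell in LZy (-3.02 ± 0.49) and passed in neither other cross, with differences of -2.50 and -3.41.

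**Figure D4:**
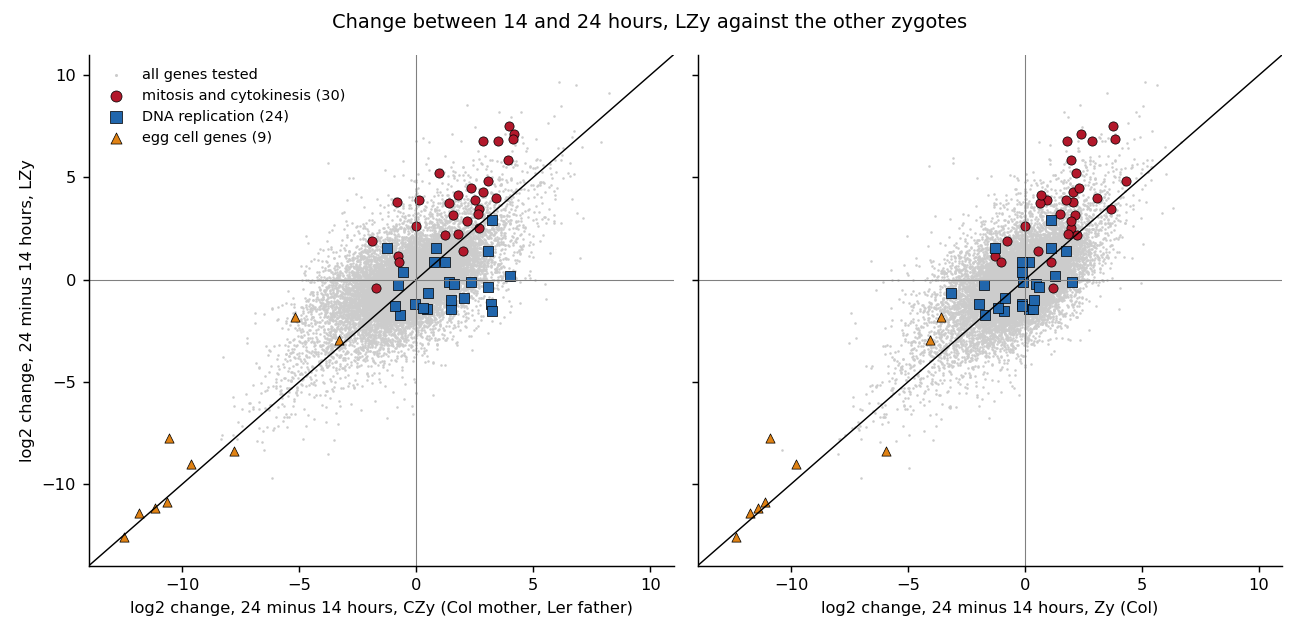
The log2 change from 14 to 24 hours in LZy (vertical) against that in CZy and in Zy (horizontal) for all 18815 genes (grey), with mitosis genes as red circles, replication genes as blue squares and egg cell genes as orange triangles. Mitosis genes lie mostly above the diagonal in both panels, and replication genes mostly below it against CZy (median difference -1.60).

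The named genes with the largest differences in change were not members of these lists. AGL102, a MADS-box gene, was listed at 0 in LZy14 and was at 109, 15.2 and 79.1 FPKM in LZy24. In CZy it went from 14.2, 14.9 and 9.47 FPKM to 0 in each library, and in Zy from 8.77, 2.80 and 15.4 to 0. AT1G11220, a DUF761 protein, rose in LZy from 0, 0.13 and 0 FPKM to 35.9, 26.5 and 31.9 and fell in CZy (-2.87) and Zy (-2.06). These genes moved in opposite directions in LZy and in both other crosses.

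AGL67, another MADS-box gene, fell from 77.6, 67.3 and 73.0 FPKM to 0 in LZy and was at 50.8, 57.0 and 38.6 and then at 11.3, 73.2 and 86.3 in CZy, where it did not pass. YSL3, a metal transporter, fell from 41.5, 56.0 and 48.5 FPKM to 0 in LZy and did not pass in CZy (0.70) or Zy (-0.26). Other differences lay in the 14 hour level. BGLU45, a beta-glucosidase, was at 83.8, 142 and 108 FPKM in LZy14, at most 4.63 in CZy14 and at most 5.87 in Zy14, and it was listed at 0 in LZy24. CYCD7;1, a D-type cyclin known from the guard cell lineage, was at 147, 298 and 214 FPKM in LZy14, at most 0.33 in CZy14 and at 119, 262 and 0.53 in Zy14, and then at 2.20, 0 and 2.37 in LZy24. The difference of ENODL3, an early nodulin-like protein, from CZy lay at 24 hours, since it was listed at 0 in all LZy14 and CZy libraries and was at 192, 58.3 and 109 FPKM in LZy24.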

How the data were processed

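RNA was measured in 6 LZy libraries, with 6 CZy and 6 Zy libraries for comparison. The deposited files give FPKM per gene, made by the authors. TopHat2, RSEM and TAIR10 are named in the submitters' processing notes, without versions or steps. The kit does not mark strand, so a gene and an overlapping antisense gene cannot be told apart, and Ler reads were counted against the Col build as far as those notes say. FPKM keep no counts, so depth is known only through the worth of 1 fragment per kb, and no counting interval is given.

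Of 24607 genes listed in any library, 24511 were found in the TAIR10.1 annotation. Genes with at least 1 FPKM in at least 3 of 18 zygote libraries, 18815 in all, were fitted on log2(FPKM + 1) with limma 3.58.1 in R 4.3.3, with trended and robust variance and 1 mean per group. Adjusted p-values are by Benjamini-Hochberg over all 18815 genes, and the median SE of an LZy change was 0.403. The fit was tested on simulated data. It missed part of the smaller changes there, so a gene that did not pass is not shown to be unchanged. Single values over libraries were tested by exact two-sided permutation in Python 3.11.15 with numpy 2.4.6. Figures were drawn with matplotlib 3.10.9.

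The comparisons, the 26 gene lists and the gene families were chosen with earlier results of these data known. Named genes are the 12 largest rises and falls with a mean of at least 20 FPKM and no overlap, up to 4 called members per list and direction, 27 anchor genes, and the 6 largest differences each way against CZy and Zy. EC1.5, MPK6, MKK4, MKK5, HTR4, AGO1, DCL1, DCL4, EMF2, DREB2A, ZAT12, CDC20.1 and the mitosis genes that did not pass fall outside that rule and were chosen after their values were seen. Alternatives were other pseudocounts, filters, scalings and thresholds, a replicate block and leaving out libraries.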

Additional observations from a re-analysis of the deposited data

Results flagged for a closer look

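Each result here is a difference between the LZy change and the change in CZy or in Zy that passed the limma test of the difference itself. The counts were 2259 genes with a more positive and 1836 with a more negative change than in CZy, and 1854 and 1437 than in Zy. Values below are log2 differences, LZy change minus the other change, and no explanation was tested.

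Among cell cycle genes they were -3.84 for PCNA1 and -4.39 for MCM3 against CZy, 4.98 for CYCB1;1 against Zy and -6.45 for CYCD7;1 against CZy. The call of CYCD7;1 was lost with a pseudocount of 0.1 (-7.29, adjusted p = 0.0552 in limma). Among regulators RKD4 differed by -2.16 from CZy and -2.08 from Zy, PLT2 by -1.39 and -1.59, SSP by -2.13 from Zy, WOX2 by 1.81 from Zy and AGO9 by -1.88 from Zy. BRX1-1, at 0 in LZy24 replicate 2, differed by 4.004 from CZy.

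More positive against CZy and Zy in turn were AGL102 (9.48 and 8.79), AT1G11220 (7.82 and 7.01), the TRAF-like AT1G69660 (6.82 and 7.17), the proline dehydrogenase ERD5 (5.46 and 9.04), EXO (6.79 and 4.59), AT4G09060 (7.66 and 5.33) and the light-induced ELIP2 (5.44 and 7.52). GAT1_2.1, a glutamine amidotransferase-like protein, differed by 9.66 from Zy and ENODL3 by 6.75 from CZy. The rise of AT1G69660 within LZy (2.13) was lost without LZy24 replicate 2 (1.72).

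More negative against CZy and Zy in turn were AGL67 (-6.01 and -4.24), YSL3 (-6.33 and -5.36), BGLU45 (-5.54 and -5.23), the expansin-like EXLA3 (-4.20 and -5.28), the F-box gene AT1G67190 (-3.65 and -5.19), AT4G32205 (-5.95 and -3.53) and AT4G26020 (-2.43 and -5.11). With a pseudocount of 0.1, 2 of these calls were lost. They were AT4G32205 against Zy (-4.74, adjusted p = 0.0647 in limma) and AT4G26020 against CZy (-2.52, adjusted p = 0.0777). SADHU3-2 differed by -5.70 and AT3G48490 by -6.47 from CZy, and AT1G73390 by -5.44 from Zy. The fall of AT1G73390 within LZy (-1.44) was lost without LZy14 replicate 2 (-1.26), LZy14 replicate 3 (-1.41), LZy24 replicate 1 (-1.30) or LZy24 replicate 2 (-1.34).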

How the results depend on the processing

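No tested value changed direction under the alternatives run. Medians of small lists did, as given with the auxin, maturation, cell wall, H2B and ribosome biogenesis genes. The excess of falls over rises was lost with a pseudocount of 5 (2408 rises and 2404 falls), after quantile normalization (3334 and 3329), without LZy14 replicate 3 (2906 and 2873) and without it and Zy24 replicate 3 (2797 and 2729). A log2 threshold of 2 left 1366 genes higher and 1551 lower. Leaving out LZy14 replicate 3 and Zy24 replicate 3 together, an alternative chosen after seeing the data, left 1150 genes with a more negative change than in CZy, and 987 more positive and 632 more negative than in Zy. The difference in genes expressed was -209.7 at a threshold of 5 FPKM, the rise in the ribosomal protein share 6.28 percentage points without the 10 highest genes, and the switched genes 155 on and 188 off when at least 10 FPKM was asked. With 1 LZy library left out at a time, the higher genes numbered 2881 to 3171 and the lower 2873 to 3498. The more positive and more negative changes numbered 1748 to 2107 and 1335 to 1772 against CZy, and 1379 to 1724 and 987 to 1401 against Zy. The difference in genes expressed lay between -818.2 and -400.2, the histone share rose by 0.116 to 0.198 and the ribosomal share by 6.99 to 7.43 percentage points, and the switched genes numbered 272 to 312 on and 328 to 477 off. Of 196 values of named genes, 13 lost their call without LZy24 replicate 2, 10 without LZy14 replicate 1, 10 without LZy14 replicate 3, and 19 with a pseudocount of 5. The cause was not tested.

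With the replicate number as a block the counts were 3209 higher and 3520 lower, 2061 and 1678 against CZy, and 1670 and 1274 against Zy, and no named gene changed its call. Deviations of same-numbered LZy libraries correlated at r = 0.011, 0.0167 and 0.0357, so the numbers were not taken to pair the samples.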

Other observations

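Gene families drawn from product descriptions after results were seen are given as counts with no test. Kinesins, the microtubule motors, had 17 of 43 higher and 5 lower (17 and 3 without LZy14 replicate 3), and cyclins 18 of 38 and 5 (17 and 4). Arabinogalactan and nodulin-like proteins of the cell surface had 23 of 54 higher and 12 lower (20 and 10). Transcription factor families differed in their counts. There were 3 higher and 20 lower of 47 NAC factors (3 and 17), 2 and 14 of 41 WRKY factors (2 and 11), and 5 and 16 of 53 ethylene response and AP2-type factors (5 and 14). Against these stood 12 and 17 of 69 MYB factors (10 and 14), 11 and 12 of 62 bHLH factors (11 and 8), 10 and 10 of 57 homeodomain and WUSCHEL-type factors (8 and 10) and 6 and 10 of 44 AGAMOUS-like MADS-box factors (4 and 8). Heat shock proteins had 7 higher and 48 lower of 110 (4 and 43), F-box proteins 31 and 75 of 325 (24 and 61), and RWP-RK factors 1 and 6 of 12 (1 and 5). Over all genes 17.2% rose and 18.9% fell.

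LZy24 replicate 2 was under 1 FPKM in 7 genes that were at 20 FPKM or above in both its partners, chosen after their values were seen. Among them were the Brix-domain genes of ribosomal RNA processing. BRX1-2 was at 106, 132 and 122 FPKM in LZy14 and at 213, 0 and 259 in LZy24, IMP4 at 106, 125 and 116 and then at 108, 0.18 and 143, and MEE49 at 188, 231 and 205 and then at 108, 0 and 129. In CZy24 no library exceeded 0.39 FPKM for BRX1-2, 0.24 for IMP4 or 0.61 for MEE49, so LZy24 replicates 1 and 3 were the ones that differed from CZy24. What sets these genes to near 0 in a library was not tested.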
